A study of Mus musculus with 16 samples.

Results

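The genes described are 10 that encode stored proteins of neutrophils, chosen by name from the 20200 genes of the deposited count table, in which all 10 were found. Mpo, Elane, Prtn3 and Ctsg encode proteins of the primary granules, Ltf, Camp, Ngp and Lcn2 encode proteins of the secondary granules, and S100a8 and S100a9 encode proteins of the cytosol. The cells came from adult wild-type C57BL/6 mice that all had anterior cruciate ligament reconstruction (ACLR), in which a tendon graft is drawn through bone tunnels. Interface tissue around the graft was digested on day 1 or day 14, and 4 myeloid populations were flow-sorted, each with 2 libraries per day (16 in all). All 4 were live CD45+ cells negative for lineage markers. CD9+ macrophages were sorted as Ly6G-, CD11b+, F4/80+ and CD9+, CX3CR1+ macrophages as Ly6G-, CD11b+, F4/80+, CX3CR1+ and CD9-, F4/80- myeloid cells as Ly6G-, CD11b+ and F4/80-, and neutrophils as Ly6G+ and Ly6C+. No tissue without surgery is among these samples, so day 1 is the earliest time. Per the study's methods several mice were pooled for a library. Errors therefore measure the spread between pools, not between animals.

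Neutrophils fill their granules in order while they mature in the bone marrow. The primary (azurophil) granules form first, at the promyelocyte stage, and hold myeloperoxidase (Mpo), which makes hypochlorous acid, and the serine proteases neutrophil elastase (Elane), proteinase 3 (Prtn3) and cathepsin G (Ctsg). The secondary (specific) granules form later, at the myelocyte and metamyelocyte stages, and hold lactoferrin (Ltf), which binds iron, the cathelicidin precursor (Camp), neutrophilic granule protein (Ngp) and lipocalin 2 (Lcn2), which binds bacterial siderophores. S100a8 and S100a9 are calcium-binding proteins that pair as calprotectin, fill the neutrophil cytosol and are also made by inflammatory monocytes. Mature neutrophils keep the primary granule proteins but hold little of their mRNA.

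Some of the genes are neighbours. On mm10, Prtn3 (chr10:79874476-79883174) and Elane (chr10:79886247-79888215) lie on the plus strand, 3072 bases apart, with no other gene of the table between them. S100a8 (chr3:90668978-90670035) and S100a9 (chr3:90692632-90695721) lie on opposite strands, 22596 bases apart. Camp (chr9:109847379-109849617), Ngp (chr9:110419747-110423012) and Ltf (chr9:111019271-111042767) lie on chromosome 9, Ngp being between the other two, with 1.17 Mb from the end of Camp to the start of Ltf. Mpo (chr11:87793581-87804413), Ctsg (chr14:56099881-56102574) and Lcn2 (chr2:32384633-32388252) are apart from the others. Prtn3 overlaps Plppr3 and Mpo overlaps Gm11505, each on the other strand, and whether the counting used strand is not given in the sources used here. Plppr3 had 771 and 841 counts in F4/80- cells on day 1 and 41 and 65 in neutrophils, and Gm11505 had 90 and 116 in F4/80- cells and 4 and 6 in neutrophils. In CX3CR1+ macrophages Plppr3 had 445 and 227 counts on day 1. Reads of the pairs may not be separable.

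All 10 genes had a RefSeq promoter window (GRCm38.p6, 250 bases before to 50 after the annotated start). Each window was searched on both strands for GAGGAA, a core of sites of PU.1, and for TTGCNNAA, a form of the C/EBP site, since both factors are known to act in granulocyte development. GAGGAA was found in 7 of the 10 windows, including all 4 of the primary granule genes, and in 28.3% of all 32851 windows of this length. TTGCNNAA was found in 4 of the 10, namely those of Ltf, Ngp, Lcn2 and S100a9, and in 10.8% of all windows. The 120 bases before the RefSeq start are shown 5′ to 3′ for a neighbouring pair of primary granule genes, for a pair of secondary granule genes and for S100a8, with a match on either strand in capitals (GAGGAA or its complement TTCCTC, and TTGCNNAA or its complement). They lie on the plus strand at chr10:79886192-79886311, chr10:79879547-79879666, chr9:111019172-111019291, chr9:110419688-110419807 and chr3:90668951-90669070.
Elane: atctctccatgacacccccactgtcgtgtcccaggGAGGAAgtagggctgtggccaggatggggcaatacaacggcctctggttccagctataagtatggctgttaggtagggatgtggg
Prtn3: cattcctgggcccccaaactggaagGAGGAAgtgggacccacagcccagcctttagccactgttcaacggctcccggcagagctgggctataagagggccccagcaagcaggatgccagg
Ltf: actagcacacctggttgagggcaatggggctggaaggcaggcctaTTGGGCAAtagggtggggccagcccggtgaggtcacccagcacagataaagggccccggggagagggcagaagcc
Ngp: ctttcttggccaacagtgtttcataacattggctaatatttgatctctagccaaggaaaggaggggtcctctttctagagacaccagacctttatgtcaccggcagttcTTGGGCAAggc
S100a8: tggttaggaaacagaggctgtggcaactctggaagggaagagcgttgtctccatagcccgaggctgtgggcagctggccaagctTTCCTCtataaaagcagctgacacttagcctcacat
In these stretches GAGGAA starts 85 bases before the start in Elane and 95 bases before it in Prtn3, and its complement starts 36 bases before it in S100a8. The complement of TTGCNNAA starts 75 bases before the start in Ltf and 11 bases before it in Ngp. For each gene shown the RefSeq start lies inside the span that the count table gives, and that of Prtn3 lies furthest from the first base of its span. A match says only that the letters are present.

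Total counts per library lay between 9233952 and 19814119. Levels are given as CPM, counts scaled to the library total and to TMM factors, which correct for library composition, and levels of different genes are compared only per kilobase of exon. The 10 genes took 4.15% to 8.95% of all counts in the neutrophil libraries, 4.63% to 5.69% in F4/80- cells, 0.606% to 2.62% in CD9+ macrophages and 0.0483% to 0.145% in CX3CR1+ macrophages. Of the counts of the 10 genes, the primary granule genes took 0.0526% to 0.199% in neutrophils, 4.71% to 7.25% in F4/80- cells and 3.91% to 8.42% in CD9+ macrophages. In CX3CR1+ macrophages they took 13.9% and 10.5% on day 1, and 64.3% and 40.1% on day 14, of a much smaller total.

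**Figure D1:**
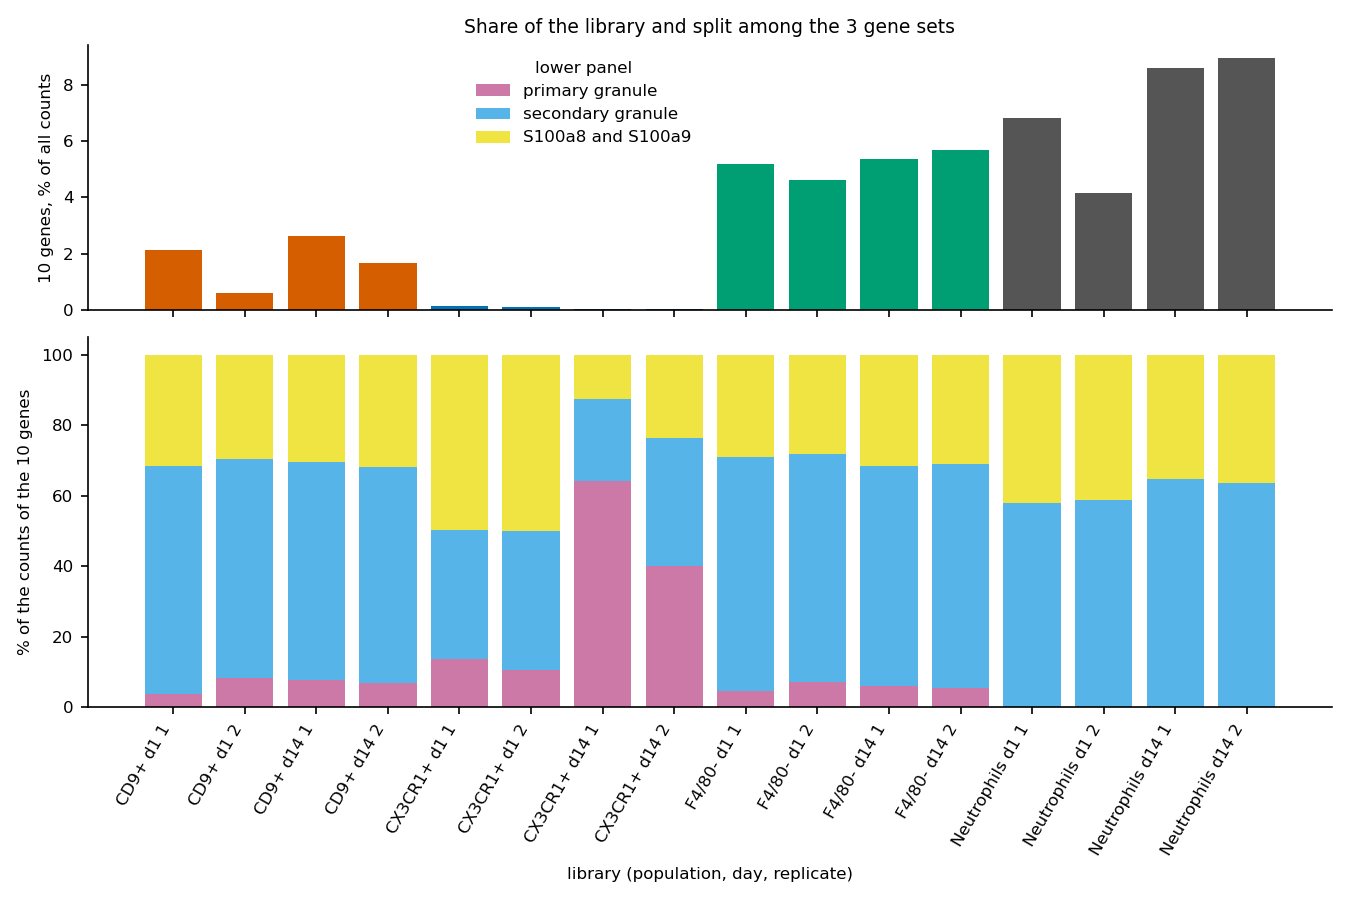
The upper panel plots the percentage of all counts taken by the 10 genes in each of the 16 libraries, and the lower panel the split of these counts among primary granule, secondary granule and S100 genes. The primary granule genes are at most 0.199% of the 10 genes' counts in every neutrophil library and at least 3.91% in every other library.

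The 2 CD9+ libraries of day 1 stood apart from each other, with a Pearson correlation of log2 CPM of 0.935 against 0.976 to 0.988 in the other groups. The higher of them exceeded the lower by 2.10 on the log2 scale for S100a8 and 2.04 for Ngp, but by 0.60 for Mpo and 0.15 for Prtn3. Neutrophil markers differed between them too, Ly6g by 3.03 and Cxcr2 by 1.50, while Retnlg differed by 0.27. In both neutrophil groups the first library held more primary granule RNA than the second, by 0.87 to 1.08 for the 4 genes on day 1 and 0.73 to 1.72 on day 14. In such bulk samples, more cells of a type and more RNA per cell cannot be told apart.

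The primary granule genes were highest in F4/80- cells, next in CD9+ macrophages, and lower in CX3CR1+ macrophages and neutrophils. For Mpo, F4/80- cells held 1441 and 2012 CPM on day 1, against 1968 and 1987 on day 14. CD9+ macrophages held 491 and 324 CPM on day 1, against 1214 and 719 on day 14 for the same gene. Every F4/80- library lay above every CD9+ library of either day. Mpo in CX3CR1+ macrophages was at 84.7 and 58.1 CPM on day 1, against 167 and 120.3 on day 14. Neutrophils, the cells that store the enzyme, held 113 and 53.5 CPM on day 1, against 73.9 and 44.4 on day 14. These last populations overlapped on day 1 and not on day 14. Elane, the elastase gene, gave the same order. In F4/80- cells Elane was at 348 and 482 CPM on day 1, against 545 and 517 on day 14, and CD9+ macrophages held 185 and 114 CPM on day 1, against 426 and 243 on day 14. The CX3CR1+ libraries held 35.7 and 19.8 CPM on day 1, against 40.8 and 31.0 on day 14, and the neutrophil libraries 39.4 and 19.6 CPM on day 1, against 26.8 and 11.8 on day 14. As for Mpo, libraries of neighbouring populations overlapped for CX3CR1+ macrophages and neutrophils on day 1 alone.

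Prtn3, which encodes a protease close to elastase, was lowest in neutrophils on both days. Neutrophil libraries held 19.0 and 9.36 CPM on day 1, against 8.52 and 4.21 on day 14. Prtn3 in F4/80- cells was at 192 and 251 CPM on day 1, against 225 and 215 on day 14. Between them lay CD9+ macrophages with 107 and 96.4 CPM on day 1, against 157 and 99.2 on day 14, and CX3CR1+ macrophages with 42.3 and 33.8 CPM on day 1, against 46.1 and 31.5 on day 14. Neighbouring groups in this order overlapped on neither day. For Ctsg, F4/80- cells held 137 and 152 CPM on day 1, against 116 and 107 on day 14. CD9+ macrophages had 50.7 and 33.4 CPM on day 1, against 52.9 and 37.6 on day 14, and CX3CR1+ macrophages 12.3 and 7.92 CPM on day 1, against 22.7 and 14.8 on day 14. Ctsg in neutrophils was at 8.60 and 4.64 CPM on day 1, against 3.72 and 1.03 on day 14, and there the CX3CR1+ and neutrophil libraries of day 1 overlapped. Per kilobase of exon, the mean CPM in F4/80- cells on day 1 was 504 for Mpo, 421 for Elane, 139.6 for Ctsg and 128 for Prtn3.

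**Figure D2:**
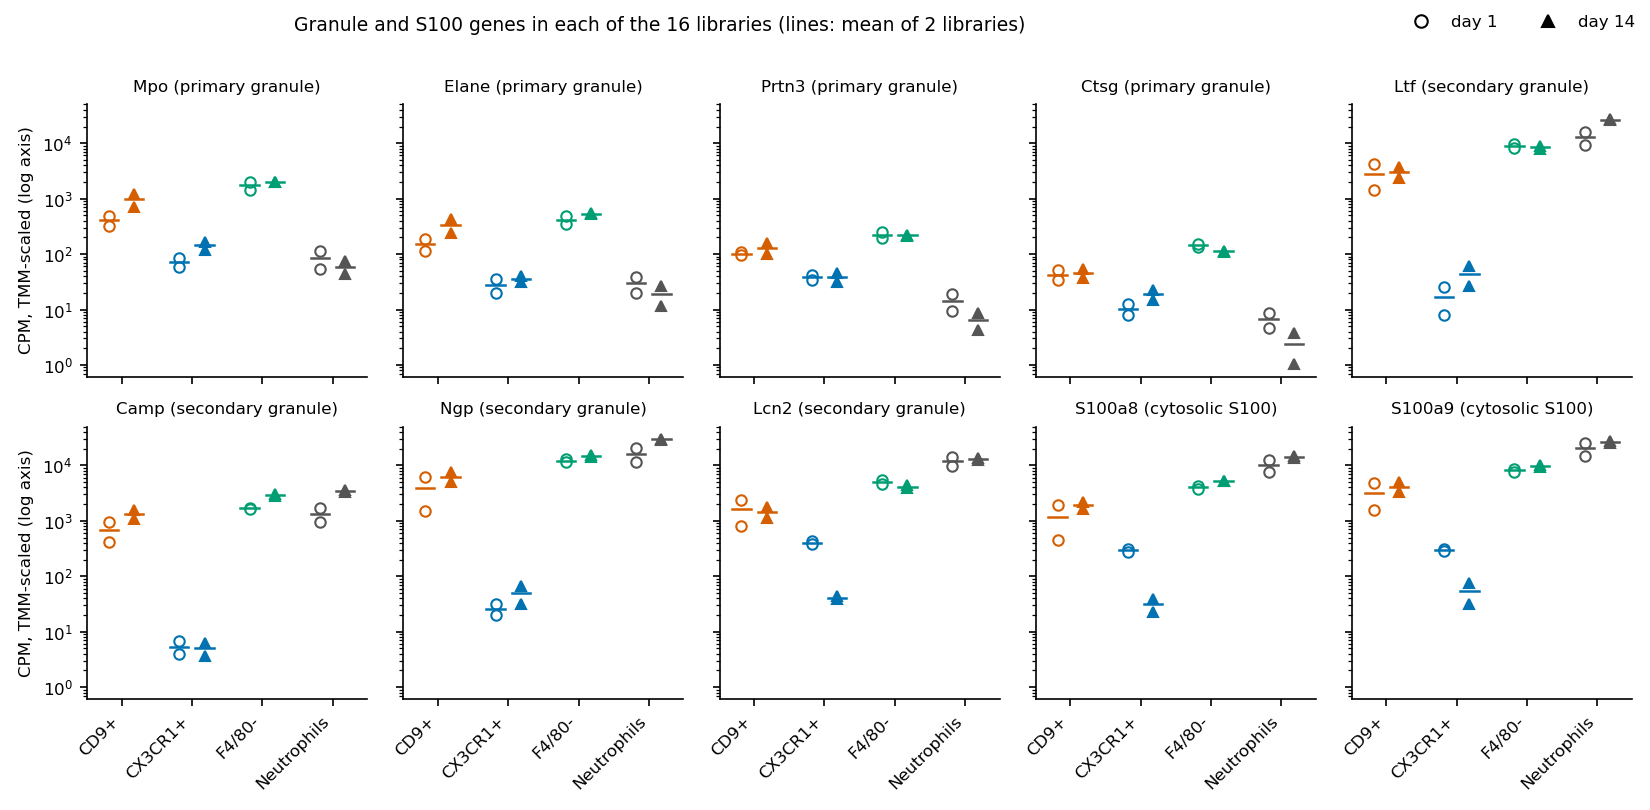
Each panel plots 1 gene as TMM-scaled CPM on a log axis in the 2 libraries of each population, with open circles for day 1, filled triangles for day 14 and a line at the mean of 2 libraries. F4/80- cells are highest for the 4 primary granule genes, and CX3CR1+ macrophages are lowest for the secondary granule and S100 genes on both days.

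Against neutrophils, all 4 primary granule genes were higher in F4/80- cells and in CD9+ macrophages on both days. A gene was called when edgeR's quasi-likelihood test gave a Benjamini-Hochberg adjusted p under 0.05, adjusted over the 11998 genes tested, and the absolute log2 fold change was at least 1. In F4/80- cells on day 1, Mpo was 20.7-fold higher than in neutrophils (log2 fold change 4.37 ± 0.40 (SE), adjusted p = 1.7e-07) and Ctsg 21.6-fold (4.43 ± 0.38 (SE), adjusted p = 1.04e-07). On day 14, Ctsg was 48.3-fold higher (5.59 ± 0.44 (SE), adjusted p = 4.27e-08), and the lowest of the 4 was Elane at 27.8-fold. The neutrophil libraries of day 14 held only 31 and 10 counts of Ctsg, so its fold changes against them rest on low counts. In CD9+ macrophages the 4 genes were 4.88-fold (Mpo) to 7.13-fold (Prtn3) higher on day 1 and 16.4-fold (Mpo) to 20.4-fold (Prtn3) higher on day 14. In CX3CR1+ macrophages on day 1, Prtn3 was called (2.67-fold, 1.42 ± 0.32 (SE), adjusted p = 0.00105), while Mpo (-0.23, 95% interval -0.97 to 0.52) and Elane (-0.090, -0.94 to 0.76) were near 0 and changed sign with other scalings. On day 14 Prtn3, Ctsg and Mpo were higher in CX3CR1+ macrophages than in neutrophils, Ctsg by 8.13-fold (3.02 ± 0.45 (SE), adjusted p = 2.72e-05). The 3 comparisons of a day share the neutrophil libraries.

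The secondary granule genes followed another order, with neutrophils highest or level with F4/80- cells, CD9+ macrophages below them and CX3CR1+ macrophages far below. For Ltf, the lactoferrin gene, neutrophils held 16134 and 9386 CPM on day 1, against 26171 and 27083 on day 14. F4/80- cells held 9724 and 8134 CPM on day 1, against 7979 and 8896 on day 14 of this RNA. Both populations overlapped on day 1 and no longer did on day 14. CD9+ macrophages were lower, at 4169.8 and 1451 CPM on day 1, against 3747 and 2310.4 on day 14, and in CX3CR1+ macrophages Ltf was at 8.05 and 25.8 CPM on day 1, against 26.6 and 61.1 on day 14. Ngp had the highest level per kilobase of the 4 secondary granule genes in neutrophils, with a mean of 13124 CPM per kilobase on day 1 and 24159.5 on day 14. Its libraries from neutrophils held 20479.5 and 11596 CPM on day 1, against 28965 and 30081 on day 14. Levels of Ngp in F4/80- cells were 12839 and 11446 CPM on day 1, against 14382 and 15582 on day 14, and as for Ltf the day 1 values of both populations overlapped. Ngp in CD9+ macrophages was at 6196 and 1504 CPM on day 1, against 7519 and 4958 on day 14, and CX3CR1+ macrophages held 20.3 and 31.7 CPM on day 1, against 31.4 and 67.3 on day 14.

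Camp was the member for which neutrophils, F4/80- cells and CD9+ macrophages lay closest together. Neutrophils held 1693 and 938 CPM on day 1, against 3350.2 and 3586 on day 14. Camp in F4/80- cells was at 1731 and 1613 CPM on day 1, against 2808 and 3089 on day 14, and in CD9+ macrophages at 972 and 409.6 CPM on day 1, against 1559.9 and 1087 on day 14. On day 1 the neutrophil libraries overlapped both of these populations. CX3CR1+ macrophages held hardly any, 3.90 and 6.93 CPM on day 1, against 3.65 and 6.38 on day 14. Lcn2 differed from the other 3 secondary granule genes in CX3CR1+ macrophages, which held 428 and 384 CPM on day 1, against 38.4 and 43.8 on day 14. Neutrophil levels of Lcn2 were 13965 and 9889 CPM on day 1, against 12570.2 and 13612 on day 14, and in F4/80- cells it was at 5485 and 4623 CPM on day 1, against 3899 and 4362 on day 14. CD9+ macrophages had 2411 and 817 CPM on day 1, against 1779.7 and 1142 on day 14. Neighbouring groups overlapped for Lcn2 on neither day.

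S100a9 had the highest level per kilobase of all 10 genes in neutrophils, with a mean of 38716 CPM per kilobase on day 1 and 50709.6 on day 14. S100a9 in neutrophils was at 25628 and 14792 CPM on day 1, against 25270.0 and 27671 on day 14. F4/80- cells followed with 8733 and 7488 CPM on day 1, against 9511 and 10352 on day 14. CD9+ macrophages lay below these, with 4837 and 1557 CPM on day 1, against 5012 and 3266 on day 14, and CX3CR1+ macrophages held 309.8 and 290.1 CPM on day 1, against 31.3 and 76.4 on day 14. Its partner S100a8 had the same order, and neighbouring groups overlapped for neither gene. S100a8 in neutrophils was at 12578 and 7485 CPM on day 1, against 13619 and 14709 on day 14, and in F4/80- cells at 4311 and 3751 CPM on day 1, against 5125 and 5206 on day 14. CD9+ macrophages had 1895 and 443 CPM on day 1, against 2180.1 and 1657 on day 14, with a low second library on day 1, and in CX3CR1+ macrophages S100a8 was at 316 and 277 CPM on day 1, against 22.3 and 39.7 on day 14. For both genes, the CX3CR1+ libraries of day 1 lay above those of day 14.

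In the tests against neutrophils, CD9+ macrophages had 4 of the 10 genes called higher and 5 lower on day 1, where 27.9% of all genes tested were called higher and 21.7% lower. On day 14 it was 4 higher and 6 lower, where 29.6% of all genes were higher and 19.9% were lower. Lower on day 1 were S100a8 by 8.58-fold (log2 fold change -3.10 ± 0.48 (SE), adjusted p = 4.15e-05), Lcn2 by 7.39-fold, S100a9 by 6.32-fold, Ltf by 4.54-fold and Ngp by 4.17-fold. Camp did not pass the fold threshold on day 1 (-0.93 ± 0.35 (SE), adjusted p = 0.029) and did on day 14 (-1.39 ± 0.36 (SE), adjusted p = 0.0028). CX3CR1+ macrophages had 1 gene higher and 6 lower on day 1, against 26.9% and 24.1% of all genes. Their count on day 14 was 3 higher and 6 lower, against 27.1% and 20.9%. There the secondary granule and S100 genes were 29.4-fold (Lcn2) to 758-fold (Ltf) lower on day 1 and 319-fold (Lcn2) to 693-fold (Camp) lower on day 14.

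F4/80- cells had 4 genes higher and 3 lower than neutrophils on day 1, against 26.4% and 22.6% of all genes tested. On day 14, 4 were higher and 4 lower, against 27.4% and 21.3%. The lower genes of day 1 were S100a9 (log2 fold change -1.32 ± 0.44 (SE), adjusted p = 0.0156), S100a8 and Lcn2, and on day 14 Ltf joined them (-1.66 ± 0.51 (SE), adjusted p = 0.01). Ltf (-0.52, 95% interval -1.58 to 0.55), Ngp (-0.40, -1.43 to 0.63) and Camp (0.35, -0.40 to 1.09) did not pass on day 1. These comparisons depended on the scaling. With library sizes alone the median of all genes moved by 0.33 to 0.61 (log2) towards higher values against neutrophils, and the genes called in the 6 comparisons split into 4037 to 4722 higher and 1320 to 1881 lower, in place of 3169 to 3554 and 2386 to 2886. Under that scaling Ltf and Ngp changed sign on day 1, and the 3 lower calls of day 1 were lost. The same 3 calls were also lost without F4/80- day 1 replicate 2 or without neutrophil day 1 replicate 1, which left 4 calls, and without either F4/80- day 14 library 5 of the 8 calls of day 14 were left.

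In CD9+ macrophages and F4/80- cells on day 1, the secondary granule and S100 genes were at a larger share of their neutrophil level than the 5 neutrophil markers. In CD9+ macrophages on day 1 the mean levels of the secondary granule and S100 genes were 11.7% (S100a8) to 52.5% (Camp) of those in neutrophils, and in F4/80- cells 40.1% (S100a9) to 127% (Camp). The defining marker Ly6g was at 0.975% in CD9+ macrophages and 8.04% in F4/80- cells, low as the Ly6G- gates require. The chemokine receptor gene Cxcr2 was at 1.79% and 7.58%. Retnlg, a neutrophil resistin-like gene, was at 4.97% and 4.91%, and the granulocyte colony-stimulating factor receptor gene Csf3r at 3.72% and 5.75%. Mgam was higher, at 8.33% and 28.2%. On day 14 the secondary granule and S100 genes were at 11.2% (Lcn2) to 38.2% (Camp) in CD9+ macrophages and 31.6% (Lcn2) to 85.0% (Camp) in F4/80- cells. Ly6g was then at 1.38% and 3.32%, and Retnlg at 7.24% and 0.326%. These 5 neutrophil markers were called lower than in neutrophils in each of the 3 other populations on both days, where 19.9% to 24.1% of all genes tested were. In CX3CR1+ macrophages on day 14 the secondary granule and S100 genes were at 0.145% (Camp) to 0.314% (Lcn2), near the 0.196% of Ly6g and below the 9.86% of Csf3r. The summed CPM of the 5 markers was 249.7 to 354 in CD9+ macrophages on day 1 and 386 to 417 on day 14, 499 to 559.8 and then 246 to 267 in F4/80- cells, 227 to 233 and then 239 to 246 in CX3CR1+ macrophages, and 7202 to 8692 and then 7421 to 7443 in neutrophils.

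**Figure D3:**
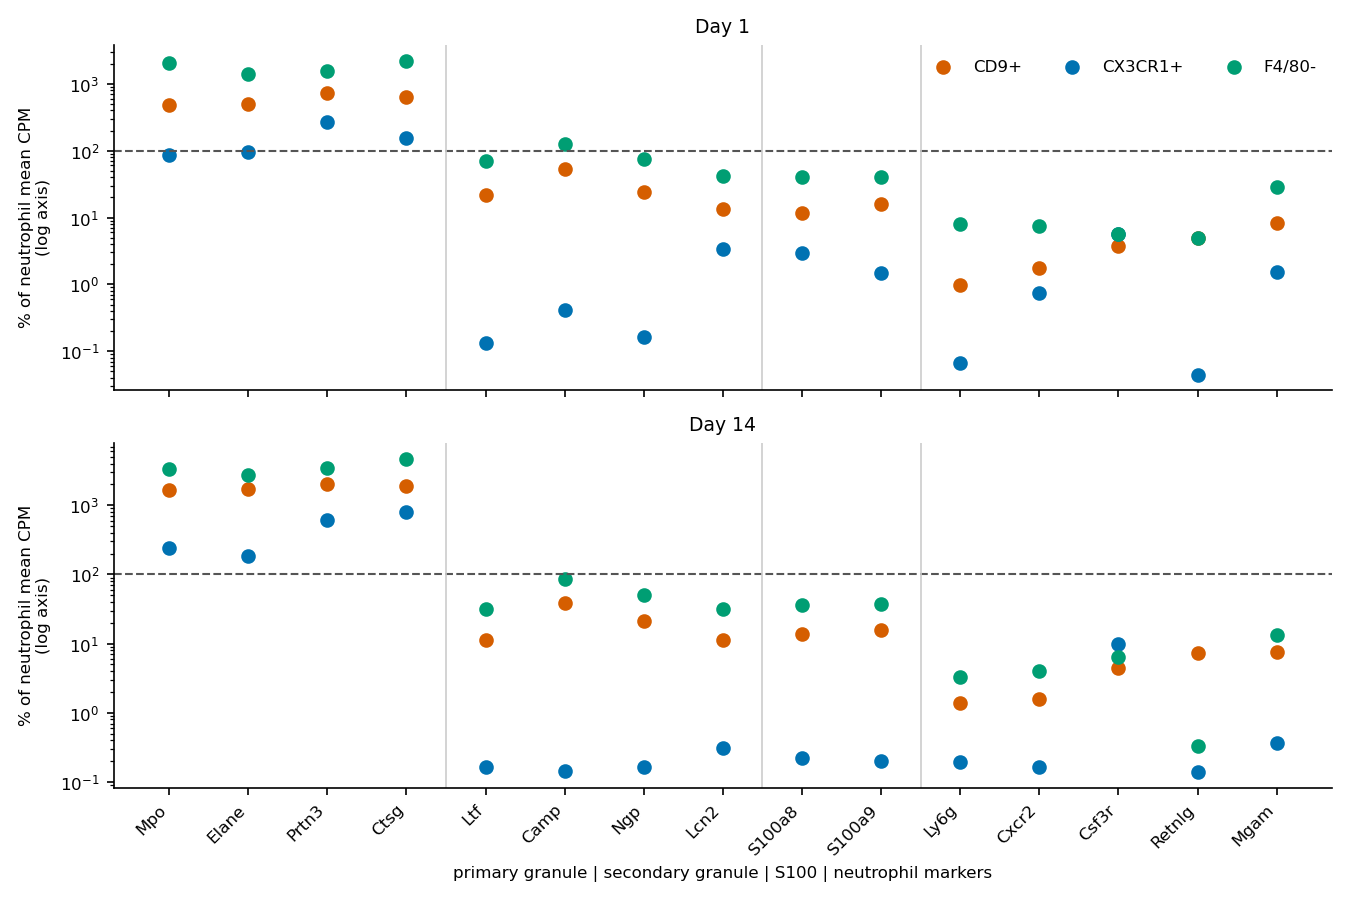
Each point is the mean CPM of a gene in CD9+, CX3CR1+ or F4/80- cells as a percentage of the neutrophil mean of the same day, on a log axis, with a dashed line at 100%. The primary granule genes lie above the line in CD9+ and F4/80- cells on both days, and the secondary granule and S100 genes mostly below it. In these 2 populations the markers Ly6g and Cxcr2 lie lower still, which for Ly6g the gates require.

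Between the macrophage populations, all 10 genes were called higher in CD9+ than in CX3CR1+ macrophages on day 1 and on day 14, where 6.36% and 9.65% of all genes tested were higher. On day 1 the largest differences were in Ltf, 167-fold (log2 fold change 7.38 ± 0.67 (SE), adjusted p = 2.77e-06), Ngp, 148-fold, and Camp, 129-fold. Lcn2 and S100a8 differed by 3.97-fold and 3.95-fold, and Prtn3 by 2.67-fold. On day 14 Camp differed most, 265-fold (8.05 ± 0.50 (SE), adjusted p = 2.64e-08), and S100a9, S100a8 and Lcn2 by 76.9-fold, 61.9-fold and 35.6-fold. The primary granule genes differed by 2.41-fold (Ctsg) to 9.31-fold (Elane). Leaving out 1 library at a time gave 8 to 10 calls on day 1 and 9 to 10 on day 14.

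F4/80- cells held more of all 10 genes than CX3CR1+ macrophages on both days, with 10 of 10 called where 10.9% and 10.4% of all genes were lower in CX3CR1+ macrophages. The differences on day 14 ranged from 5.67-fold for Prtn3 to 589-fold for Camp. Against CD9+ macrophages the excess of F4/80- cells was smaller. All 10 genes were called lower in CD9+ macrophages on day 1, where 6.16% of all genes were, by 2.18-fold (Prtn3) to 4.23-fold (Mpo, log2 fold change -2.08 ± 0.36 (SE), adjusted p = 0.000517). On day 14 Ctsg, Camp and Lcn2 were called lower, against 1.11% of all genes, Lcn2 by 2.83-fold (-1.50 ± 0.35 (SE), adjusted p = 0.0101), and S100a8 just missed the threshold (-1.43 ± 0.45 (SE), adjusted p = 0.0513). With a replicate block, which compares libraries of the same pool number within a day, 6 were called, Mpo, S100a8 and S100a9 being added. The counts rested on single libraries, with 5 calls on day 1 without CD9+ day 1 replicate 2 or F4/80- day 1 replicate 2, 6 without F4/80- day 1 replicate 1, and on day 14 0 without CD9+ replicate 2 or F4/80- replicate 2 and 1 without F4/80- replicate 1.

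In CD9+ macrophages 2 of the 10 genes were called higher on day 14 than on day 1, Mpo by 2.37-fold (log2 fold change 1.24 ± 0.35 (SE), adjusted p = 0.0236) and Elane by 2.23-fold (1.16 ± 0.38 (SE), adjusted p = 0.0489), where 4.75% of all genes were called higher and 3.48% lower. Camp had 0.94 ± 0.35 (SE), adjusted p = 0.0803, and the other 7 had log2 fold changes between -0.14 (Lcn2) and 0.71 (S100a8). The count depended on the day 1 libraries that stood apart. Without CD9+ day 1 replicate 1 it was 6, Camp, Ngp, S100a8 and S100a9 being added, and it was 0 without CD9+ day 1 replicate 2 or without CD9+ day 14 replicate 1. With the replicate block it was 3, Camp being added.

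In CX3CR1+ macrophages 3 of the 10 genes were called lower on day 14, where 3.47% of all genes were lower and 2.39% higher. Lcn2 was lower by 9.89-fold (log2 fold change -3.31 ± 0.39 (SE), adjusted p = 4.98e-05), S100a8 by 9.56-fold (-3.26 ± 0.50 (SE), adjusted p = 0.000512) and S100a9 by 5.58-fold (-2.48 ± 0.47 (SE), adjusted p = 0.00249). The other secondary granule genes were not called. Ltf had a log2 fold change of 1.38 (95% interval 0.23 to 2.53, adjusted p = 0.113), Ngp of 0.93 (adjusted p = 0.27) and Camp of -0.10 (adjusted p = 0.922). Mpo had 1.01 ± 0.35 (SE), adjusted p = 0.0759 and was called with the replicate block, which gave 4 calls. Leaving out 1 library at a time gave 3 to 4 calls. In the same comparison 3 of the 8 macrophage and monocyte markers were lower, Mertk by a log2 fold change of -3.61, C1qa of -2.91 and Fcgr1 of -1.54. Of the 5 neutrophil markers, Cxcr2 (-2.89) and Mgam (-1.84) were lower and Retnlg (2.32) was higher. Their part in the lower levels of the 3 genes was not tested.

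In neutrophils 1 of the 4 secondary granule genes was called higher over time and 2 of the 4 primary granule genes lower. Camp was higher on day 14 by 2.64-fold (log2 fold change 1.40 ± 0.36 (SE), adjusted p = 0.00859), and Prtn3 and Ctsg were lower by 2.27-fold (-1.18 ± 0.37 (SE), adjusted p = 0.0282) and 2.90-fold (-1.53 ± 0.48 (SE), adjusted p = 0.0275), where 3.15% of all genes were higher and 10.9% lower. Ltf had 1.06 ± 0.51 (SE), adjusted p = 0.135, and S100a8, S100a9 and Lcn2 had log2 fold changes of 0.50, 0.39 and 0.13. Without neutrophil day 1 replicate 1 only Camp was called, and without neutrophil day 14 replicate 2 none was. In F4/80- cells edgeR called 0 of the 10 genes over time, where 3.25% of all genes were called. There 1 gene, Camp (0.82 ± 0.35 (SE), adjusted p = 0.206), had an unadjusted p under 0.05, and DESeq2 called 0.

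**Figure D4:**
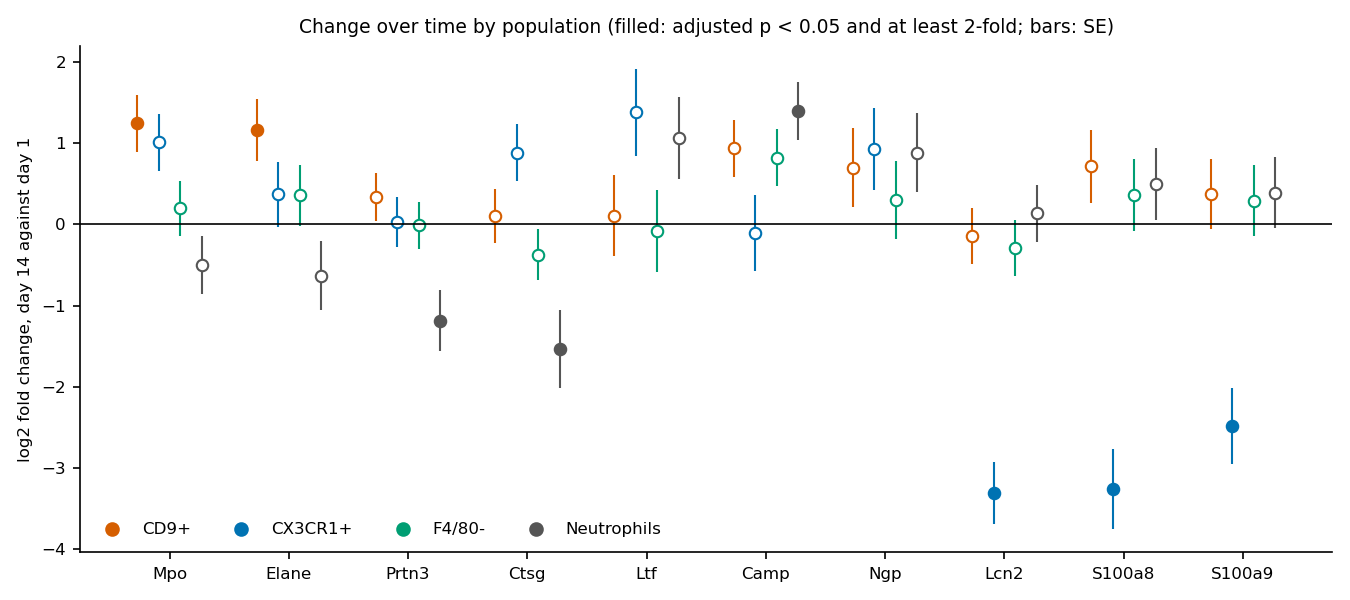
Points are log2 fold changes of day 14 against day 1 for each gene in each population, with filled points for called genes. Bars are the SE of the fit, which estimates a gene's spread over all 8 groups together and not from the libraries compared alone. Lcn2, S100a8 and S100a9 in CX3CR1+ macrophages lie between -3.31 and -2.48, while the same genes in the other populations lie between -0.29 and 0.71.

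Whether the time change itself differed between populations was tested as an interaction in the same fit. The fall of the 3 genes in CX3CR1+ macrophages differed from the change in every other population. For S100a8 the time change in CD9+ macrophages exceeded that in CX3CR1+ macrophages by 3.97 ± 0.66 (SE), adjusted p = 0.00459, and Lcn2 and S100a9 passed too, 3 of 10 genes where 2.28% of all genes did. Against F4/80- cells the same 3 genes passed, where 1.01% of all genes did, S100a9 narrowly (-2.77 ± 0.63 (SE), adjusted p = 0.0473). That count was 0 without CX3CR1+ day 14 replicate 1 or F4/80- day 1 replicate 2, and 1 without CX3CR1+ day 1 replicate 1, F4/80- day 1 replicate 1 or F4/80- day 14 replicate 2. Against neutrophils 4 genes passed, where 9.09% did, the 3 and Ctsg. The time change of Ctsg was higher in CX3CR1+ macrophages by 2.42 ± 0.60 (SE), adjusted p = 0.0147. Its counts in the neutrophil libraries of day 14 were only 31 and 10. With the replicate block Mpo was called too.

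Between CD9+ macrophages and neutrophils, 1 gene, Mpo, was called (1.75 ± 0.50 (SE), adjusted p = 0.036), where 8.03% of all genes did, and Elane (1.79, adjusted p = 0.0564), Prtn3 (1.52, 0.053) and Ctsg (1.64, 0.0879) had values of the same sign. With the replicate block 4 were called, these 3 being added. The count was 0 without CD9+ day 1 replicate 2, CD9+ day 14 replicate 1, neutrophil day 1 replicate 1 or neutrophil day 14 replicate 2, and 2 to 5 without any of the other 4 libraries. DESeq2 called 3. Between F4/80- cells and neutrophils edgeR called 0 genes, where 7.73% of all genes were called, with 1 at an unadjusted p under 0.05 (Prtn3) and 0 by DESeq2. Between CD9+ macrophages and F4/80- cells edgeR also called 0, where 1.69% were called, with 1 at an unadjusted p under 0.05 (Mpo) and 0 by DESeq2, and without CD9+ day 1 replicate 1 the count was 3.

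Other genes of primary granule assembly were measured beside the members. Of the list of Ctsc, which encodes the protease that activates the 3 serine proteases, Prss57, Serpinb1a, Srgn and Ms4a3, 5 genes were tested. In F4/80- cells 3 of the 5 were higher and 1 lower than in neutrophils on each day. Of all genes tested, 26.4% were higher and 22.6% lower on day 1, and 27.4% and 21.3% on day 14. The median log2 fold change of the list was 1.50 on day 1 and 1.65 on day 14, against -0.023 and 0.036 over all genes tested. Bpi, also on the list, was not analysed here. Ms4a3, a gene of granulocyte and monocyte progenitors, was 68.5 and 74.8 CPM in F4/80- cells and 7.62 and 5.42 in neutrophils on day 1 (log2 fold change 3.45 ± 0.46 (SE), adjusted p = 9.58e-06). Over time in CD9+ macrophages 1 of the 5, the serine protease gene Prss57, was higher (1.80 ± 0.38 (SE), adjusted p = 0.00548), 1, Ctsc, was lower (-1.49 ± 0.17 (SE), adjusted p = 4.33e-05), and 3 were not called. There 4.75% of all genes were called higher and 3.48% lower. Srgn, which encodes the proteoglycan serglycin that packs granule proteins, was highest in neutrophils, 4361 and 4318 CPM on day 1. Ctsc instead was highest in CX3CR1+ macrophages, 1048 and 1083 CPM on day 1, and lowest in neutrophils, and fell over time in neutrophils by 7.29-fold (-2.87 ± 0.19 (SE), adjusted p = 4.67e-08).

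Of 12 other secondary and tertiary granule genes, 9 were lower and 1 higher in CD9+ macrophages than in neutrophils on day 1, and 11 lower and 1 higher on day 14, where 21.7% and 27.9%, and then 19.9% and 29.6%, of all genes were lower and higher. In F4/80- cells 9 were lower and 1 higher on day 1, and 10 lower and 1 higher on day 14, where 22.6% and 26.4%, and then 21.3% and 27.4%, of all genes were. The gene that was higher in all 4 was Fcnb, the ficolin-B gene, with 748 and 780.2 CPM in F4/80- cells, 486 and 311 in CD9+ macrophages and 179 and 172 in neutrophils on day 14. The gelatinase gene Mmp9, of the last granules to form, had 6055 and 6409 CPM in neutrophils and 28.3 and 44.7 in F4/80- cells on day 14, and had fallen in F4/80- cells from 536 and 402 on day 1 (log2 fold change -3.69 ± 0.50 (SE), adjusted p = 0.000418). The collagenase gene Mmp8 and the marker Retnlg also fell there, by 7.76-fold (-2.96 ± 0.29 (SE), adjusted p = 2.86e-05) and 9.67-fold (-3.27 ± 0.30 (SE), adjusted p = 1.34e-05). In the same cells Ltf, Ngp and Camp had log2 fold changes of -0.082, 0.30 and 0.82, none of them called.

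Of 8 other S100 genes and receptors of S100A8 and S100A9, 3 were higher and 4 lower in CD9+ macrophages than in neutrophils on day 1, where 27.9% and 21.7% of all genes were. Between CD9+ and CX3CR1+ macrophages the median log2 fold change of the list was -0.17 on day 1 and 0.14 on day 14, against 0.040 and 0.0065 over all genes tested. S100a10, which encodes the partner of annexin A2, was, unlike S100a8, higher in CX3CR1+ macrophages, with 244 and 254 CPM, than in neutrophils, with 20.4 and 8.84, on day 1 (log2 fold change 4.08 ± 0.30 (SE), adjusted p = 1.59e-08). Tlr4, a receptor of the S100A8 and S100A9 pair, was 123 and 130.2 CPM in neutrophils on day 1 and 48.7 and 48.4 on day 14, a fall by 2.60-fold (-1.38 ± 0.16 (SE), adjusted p = 1.58e-05).

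Of 8 transcription factors of granulocyte development, 4 were higher in CD9+ than in CX3CR1+ macrophages on day 1 and 3 on day 14, where 6.36% and 9.65% of all genes were higher. Cebpe, which the secondary granule genes need, was 97.3 and 97.0 CPM in CD9+ macrophages, 119 and 129.8 in F4/80- cells, 154 and 159.7 in neutrophils and 2.34 and 2.59 in CX3CR1+ macrophages on day 14. Over time 3 of the 8 were called higher in CD9+ macrophages, where 4.75% of all genes were, namely Gfi1, Myb and Cebpa (1.08). In CX3CR1+ macrophages 3 were called higher, Cebpa (1.94), Cebpb (3.03) and Myb (1.71), where 2.39% were. Gfi1, a transcriptional repressor that neutrophil development needs, rose over time in CD9+ macrophages from 7.19 and 8.21 to 32.4 and 27.9 CPM (log2 fold change 1.97 ± 0.28 (SE), adjusted p = 0.000281). Myb, a progenitor factor, rose there from 56.2 and 25.8 to 188 and 187 CPM (2.18 ± 0.25 (SE), adjusted p = 4.85e-05), as did the stem cell factor receptor gene Kit, from 21.7 and 5.26 to 56.1 and 44.6 (1.86 ± 0.43 (SE), adjusted p = 0.00821). Kit, Cebpe and Myb were, like the members of every set, higher in CD9+ day 1 replicate 1 than in replicate 2.

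Markers of other cells moved with the sorted populations. The 8 macrophage and monocyte markers summed to 1992 to 2455 CPM in CD9+ macrophages on day 1 and 1362 to 1765 on day 14, 3142 to 3422 and then 3035 to 3252 in CX3CR1+ macrophages, 776 to 797 and then 756 to 829.8 in F4/80- cells, and 827 to 990.5 and then 542 to 567 in neutrophils. In CD9+ macrophages the eosinophil gene Prg2 was at 279.8 and 388 CPM on day 1, against 3913 and 6216 on day 14, and Epx, the eosinophil peroxidase gene, at 151 and 139 CPM on day 1, against 1809.9 and 3056 on day 14, the days between which Mpo and Elane rose. The summed CPM of the 4 eosinophil markers was 489 to 561 in CD9+ macrophages on day 1 and 5806 to 9368 on day 14, and 115 or less in every other library. The higher of the day 14 CD9+ libraries for Prg2 and Epx was the lower one for Mpo and Elane. The 3 basophil and mast cell markers summed to 405 to 507 CPM in F4/80- cells on day 1 and 672 to 757 on day 14, and to 136 or less elsewhere. The 5 progenitor and cycling markers summed to 3453 to 3469 and then 4137 to 4457 in F4/80- cells, to 2147 to 3021 and then 2707 to 3798 in CD9+ macrophages, to 2126 to 2188 and then 2096 to 2299 in CX3CR1+ macrophages, and to 645 to 917 and then 1171 to 1302 in neutrophils. The 4 B and T cell markers in the table summed to at most 5.74 CPM in any library, and the 5 erythroid and platelet markers to at most 195, in CD9+ macrophages on day 1. The F4/80 gene Adgre1 was 13.8 and 8.40 CPM in F4/80- cells on day 1 and 119.9 and 159 in CD9+ macrophages, as the gates require. The part of these cells in the granule gene levels was not tested.

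By their levels over the 16 libraries, the primary granule genes stood apart from the other members. The libraries come from 8 groups and so are not 16 independent points. Pearson correlations of log2 CPM were 0.926 to 0.992 among the 4 primary granule genes. They were 0.881 to 0.995 among the secondary granule and S100 genes, but -0.15 to 0.44 between these and the primary granule genes. Lcn2 was closer to S100a8 (0.991) and S100a9 (0.984) than to Ltf (0.887), Camp (0.881) and Ngp (0.895). The genes outside the list whose levels were most like the mean of the primary set were Cst7 (0.977), Tespa1 (0.975), Rrm2 (0.973), Cenpk (0.963) and Dsn1 (0.962). Cst7, which encodes the protease inhibitor cystatin F, had a mean of 26.6 CPM in F4/80- cells and 1.66 in neutrophils on day 1. Most like the secondary set were Sept5 (0.994), Itgb2l (0.993), 4930438A08Rik (0.991), Lin28a (0.991) and Slco4c1 (0.990). Most like the S100 pair were Tmem40 (0.992), Abca13 (0.987), Wfdc21 (0.987), Il18rap (0.986) and Olfml2b (0.985). By Spearman correlation 1 of the 5 genes was shared in each set.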

How the data were processed

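Per the study's methods, SMART-Seq Stranded libraries of sorted cells were sequenced with paired ends, trimmed with Cutadapt, mapped to mm10 with STAR and counted in exons of Gencode, and the authors deposited raw counts per gene, without normalization. The smallest total of a gene in the table was 17 counts. Groups came from the labels' gates and days. The 11998 genes whose mean CPM reached 3 in any of the 8 groups were fitted in 1 model with 8 group means and TMM factors (0.752 to 1.16), with edgeR 4.0.16 in R 4.3.3 (glmQLFit, glmQLFTest). SE is the absolute log2 fold change over the root of F. The spread of a gene was estimated over all 8 groups together. An SE therefore does not show that the CD9+ libraries of day 1 differed more than those of other groups. For S100a8 over time it was 0.447 in CD9+ macrophages and 0.445 in F4/80- cells. The filter, tool and thresholds follow the study's methods. Exon lengths came from a Gencode annotation in which the spans of all 10 members equal those of the table. All members passed the filter. All 10 members are named, with the 5 genes most correlated with each set. Each list is given by its counts or summed level, except 1 neutrophil marker not reported here, and its named examples were singled out after their values were seen. Members and lists were chosen with earlier results of these data known. On simulated counts for CD9+ day 14 against day 1 (11755 genes), 166 of 197 changed genes (84.3%) were called, each in its simulated direction, and 7 genes left unchanged were called too. Whether these rates hold for libraries as far apart as those of CD9+ day 1 (Pearson correlation 0.935) was not tested. Nor was it tested for a log2 fold change as small as that of Mpo in this comparison (1.24). The alternatives were DESeq2 1.42.0, other filters and scalings, the compared groups alone, a replicate block and leaving out each library. Same-numbered libraries of a day were taken to come from 1 pool of mice, from the numbers in the titles and from the study's account of pooling. Their deviations correlated positively in 12 of 12 pairs (0.013 to 0.14), 3 of them over 0.1.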

Additional observations from a re-analysis of the deposited data

Results flagged for a closer look

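A change over time that differed between populations by the interaction test was seen for 11 pairs of a gene and a pair of populations. The values are differences of log2 fold changes (day 14 against day 1) with edgeR adjusted p. For CX3CR1+ macrophages minus neutrophils they were -3.44 ± 0.51 (SE), adjusted p = 0.000391 for Lcn2, -3.75 ± 0.66 (SE), adjusted p = 0.00148 for S100a8, -2.87 ± 0.63 (SE), adjusted p = 0.00763 for S100a9 and 2.42 ± 0.60 (SE), adjusted p = 0.0147 for Ctsg. For CX3CR1+ macrophages minus F4/80- cells they were -3.02 ± 0.51 (SE), adjusted p = 0.00704 for Lcn2, -3.62 ± 0.66 (SE), adjusted p = 0.0117 for S100a8 and -2.77 ± 0.63 (SE), adjusted p = 0.0473 for S100a9. For CD9+ minus CX3CR1+ macrophages they were 3.16 ± 0.51 (SE), adjusted p = 0.00392 for Lcn2, 3.97 ± 0.66 (SE), adjusted p = 0.00459 for S100a8 and 2.85 ± 0.63 (SE), adjusted p = 0.0232 for S100a9. For CD9+ macrophages minus neutrophils the value was 1.75 ± 0.50 (SE), adjusted p = 0.036 for Mpo, which was not called with the compared groups alone. Of all genes tested, 9.09% were called for CX3CR1+ macrophages minus neutrophils and 1.01% for CX3CR1+ macrophages minus F4/80- cells. The shares were 2.28% for CD9+ minus CX3CR1+ macrophages and 8.03% for CD9+ macrophages minus neutrophils, where Mpo was 1 of the 10 members and so near that share. The comparisons share libraries, since CX3CR1+ macrophages enter 10 of the 11.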

How the results depend on the processing

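Of the 122 differences called for a gene in a comparison, 0 changed sign under any alternative. Under every alternative that measured the gene, 88 were called, and 34 were lost in at least 1. Ctsg did not pass the filter in every group and so was not measured there. Of the 32 time changes and 49 interactions that were not called, 12 and 23 changed sign somewhere. The number of genes called moved by more than 1.5 times as follows. The cause was not tested, except where fewer samples entered or where the filter in every group left out Ctsg. For CD9+ day 14 against day 1 (2) it was 1 with DESeq2, 0 with the compared groups alone and 0 to 6 without 1 library. For neutrophils over time (3) it was 0 to 3 without 1 library. For F4/80- cells against neutrophils on day 1 (7) it was 3 with the filter in every group, 4 with library size only, 4 with upper quartile factors and 4 to 7 without 1 library, and on day 14 (8) it was 5 with library size only and 5 to 8 without 1 library. For CD9+ macrophages against F4/80- cells on day 1 (10) it was 4 with the compared groups alone and 5 to 10 without 1 library, and on day 14 (3) it was 7 with no filter, 6 with the replicate block, 8 with the compared groups alone and 0 to 3 without 1 library. For the time change of CD9+ macrophages minus that of neutrophils (1) it was 3 with no filter, 3 with the filter in every group, 2 with library size only, 4 with the replicate block, 3 with DESeq2, 0 with the compared groups alone and 0 to 5 without 1 library. For F4/80- cells minus neutrophils (0) it was 1 with the compared groups alone and 0 to 1 without 1 library, for CD9+ macrophages minus F4/80- cells (0) 0 to 3, and for CX3CR1+ macrophages minus F4/80- cells (3) 0 to 3.

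With library size only, the genes called split into 809 higher and 301 lower for CD9+ macrophages over time (570 and 418 with TMM), 613 and 501 for CD9+ against CX3CR1+ macrophages on day 1 (763 and 225), 804 and 1239 for CD9+ macrophages against F4/80- cells on day 1 (1108 and 739), and 260 and 55 (161 and 112) and 214 and 40 (132 and 71) for the time change of CD9+ macrophages minus that of CX3CR1+ macrophages and of F4/80- cells. With upper quartile factors F4/80- cells against neutrophils on day 1 had 3818 and 2009 (3169 and 2713), and CD9+ minus CX3CR1+ macrophages 183 and 82.

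Values that changed sign were not called in either fit. For CX3CR1+ macrophages against neutrophils on day 1, Mpo (-0.23) became 0.0061 with the filter in every group, 0.35 with library size only and 0.048 with upper quartile factors, and lay between -0.67 and 0.42 without 1 library. Elane (-0.090) became 0.0017 with no filter, 0.14 with the filter in every group, 0.49 with library size only and 0.19 with upper quartile factors, and lay between -0.52 and 0.51. For F4/80- cells against neutrophils on day 1, Ltf (-0.52) became 0.097 and Ngp (-0.40) became 0.21 with library size only, and without 1 library Ngp lay between -0.75 and 0.067 and Camp (0.35) between -0.018 and 0.83. On day 14 Camp (-0.23) became 0.075 with the filter in every group, 0.33 with library size only and 0.011 with upper quartile factors.

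The replicate block, which pairs the libraries of 1 pool within a day, lost no call of a member. It added Camp in CD9+ macrophages over time (3 calls), and Mpo in CX3CR1+ macrophages over time (4 calls) and against the neutrophil time change (5 calls). It also added Mpo, S100a8 and S100a9 between CD9+ macrophages and F4/80- cells on day 14 (6 calls). For the time change of CD9+ macrophages minus that of neutrophils it added Elane, Prtn3 and Ctsg (4 calls). Leaving out a library leaves 1 in its group, which is then assumed to vary like the others. With 2 libraries per group, differences such as those of the CD9+ macrophages over time could not be settled. Counts are of amplified reads without molecular identifiers.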
